A study of Mus musculus with 12 samples.

Results

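The genes described here are the 72 protein-coding genes whose CPM (the count of a gene divided by all counts on genes of its library, times 1000000) was lower in each of 9 cKO mice than in each of 3 P30 control mice. They were selected on that separation among 13343 eligible genes, which are the protein-coding genes off chromosome Y with a mean of at least 1 CPM over the 12 libraries, out of 54146 genes in the files. Their values at P30 and in the cKO mice are therefore the values that chose them, and are given as a description. The differences among the cKO ages were not part of the choice, although it did read the highest of the 9 cKO values.

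The series asked which transcripts change when the homeobox transcription factor OTX2 is removed from adult photoreceptors (PRs). Each library held RNA from the whole retina of 1 mouse, and retinas taken this way were said to bring RNA of the retinal pigmented epithelium (RPE) with them. The controls were 3 P30 mice, labelled control and, by source name, Control_Crx, with no day after KO. In the methods they are the mice taken at the time of injection, the first of the time points. The cKO mice were Crx-CreERT2; Otx2 flox/flox mice on the 129/SV background, 3 each at P32, P34 and P38, which is 2, 4 and 8 d after a single tamoxifen injection at P30. Cre in this line is driven by the Crx promoter, and the labels name photoreceptors as the cells that lose Otx2. The alleles of the P30 controls are not stated in the labels or methods used here, nor is it plain whether these controls were given tamoxifen. Age and the deletion changed together between P30 and the cKO mice, as did the time since the injection, so their parts in a difference cannot be told apart. All 3 P30 mice expressed Xist, a transcript of the inactive X chromosome, as did 4 of the 9 cKO mice, whereas the other 5 had at most 3.29 CPM. The cKO group therefore mixed the sexes while the P30 group did not.

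OTX2 is present in PRs, bipolar cells and the RPE, and in pigmented cells it acts with MITF on genes of melanin synthesis. Those genes are also active in melanocytes and in the pigmented epithelia of the iris and ciliary body, which adjoin the retina. The ciliary body and iris also hold smooth muscle, stroma and transport epithelium. In RNA from a whole tissue, fewer cells of a type and less RNA per cell cannot be told apart.

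Counts on genes came to 29701483 to 60145034 per library. Otx2 had 309, 344 and 301 CPM in P30 mice 1, 2 and 3 and 307 to 387 CPM (median 339) in the cKO mice, so the groups overlapped. The deletion removes 1 coding exon, so counts over the whole gene do not check it. Crx, a transcription factor of PRs, was present in every library, with 1238, 1250.4 and 1089 CPM at P30 and 1059 to 1312 CPM (median 1235) in the cKO mice. Lens genes, by contrast, took 0.0358 to 6.31% of counts from library to library.

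Of the eligible genes, 72 (0.540%) lay below every P30 mouse in all cKO mice, and 6 (0.0450%) lay above every P30 mouse. Since this is the contrast that the choice used, nothing is read from these shares. There are 220 ways to choose 3 of 12 libraries, and 1 in 220 is 0.455% of the eligible genes, or 60.6 genes in each direction. The genes are not independent of each other, and no test was made of either number. The 6 genes above were Coq5, Ddx59, Fbxl4, Grin2d, Odc1 and Svop, with cKO means 1.12 to 1.34 times the P30 means. The excess of genes below over genes above depended on how libraries were scaled. With CPM scaled by edgeR's TMM factors, 55 genes lay below (0.412%) and 19 above (0.142%). With DESeq2's size factors, 53 lay below (0.398%) and 25 above (0.188%). The share of separated genes that lay below was thus 92.3% on plain CPM, 74.3% after TMM and 67.9% with DESeq2's size factors. Of the 72 genes, 43 lay below every P30 mouse after TMM, 44 with DESeq2's size factors and 42 under all 3 scalings.

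**Figure D1:**
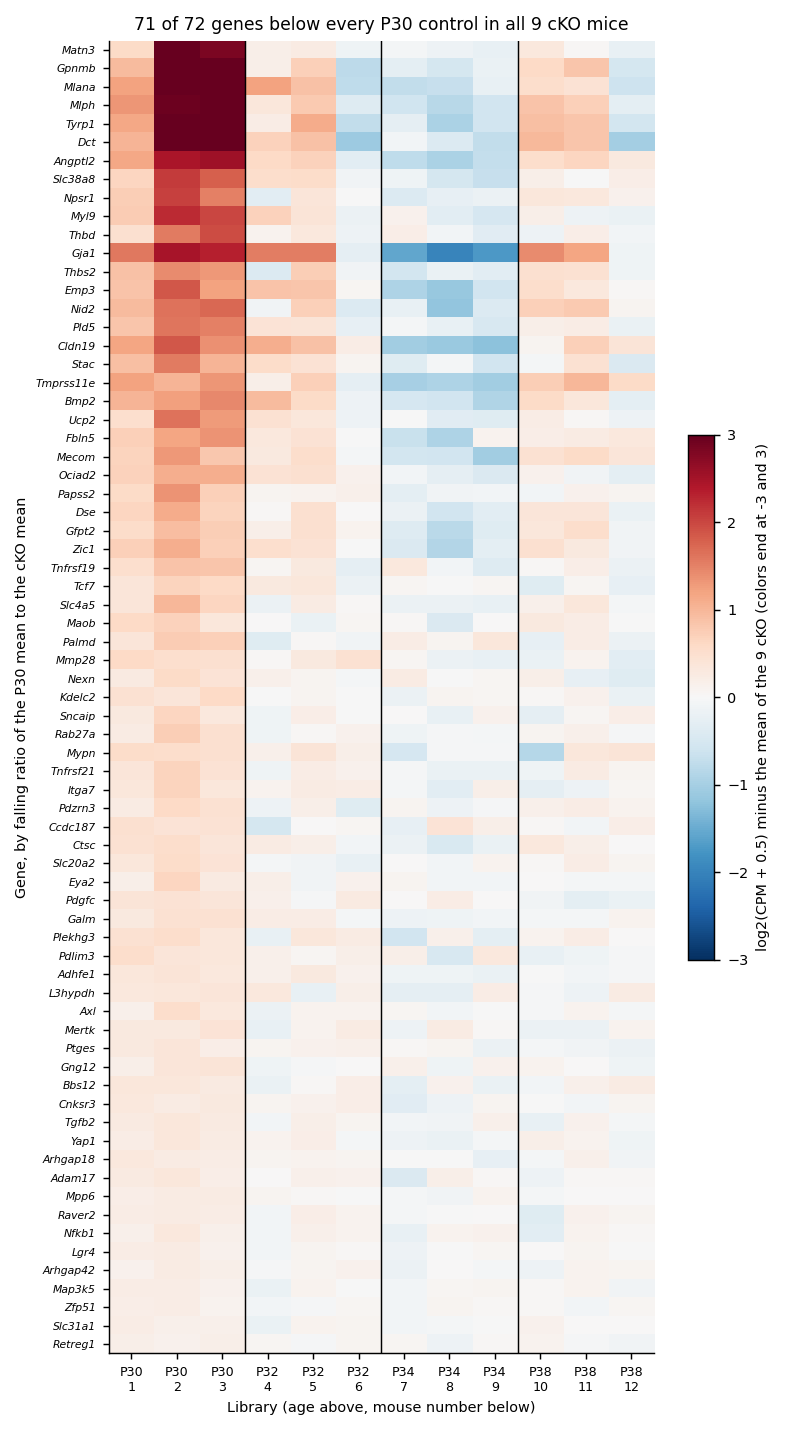
Heat map of 71 of the 72 genes (rows, ordered by the ratio of the P30 mean to the cKO mean) in the 12 libraries (columns), colored by log2(CPM + 0.5) minus the mean of that gene over the 9 cKO mice. P30 mice 2 and 3 are far above the cKO mice in the top rows and P30 mouse 1 less so, and in many of those rows the 3 P34 mice are the lowest.

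The size of the separation varied widely. In 24 members the P30 mean was at least 2 times the cKO mean (median 3.13, highest 47.8), in 11 it was 1.5 to 2 times (median 1.74), and in 37 it was under 1.5 times (median 1.27). The distance between the lowest P30 mouse and the highest cKO mouse was much narrower than the distance between means. Its median was 4.33% of the highest cKO value, it was under 5% in 39 members, and it was over 20% in 8. Exact Poisson intervals (95%, counting error only) of the lowest P30 and the highest cKO value did not overlap in 6 members, Mlph, Angptl2, Papss2, Pld5, Ociad2 and Slc20a2. In the other 66 the interval of 1 library reached that of the other.

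P30 mouse 1 was the lowest control in 48 members, P30 mouse 3 in 17 and P30 mouse 2 in 7. Among the 24 members with the widest ratios P30 mouse 1 was the lowest in 22, and there its value was a median of 2.00 times the cKO mean, against 3.82 times for the mean of P30 mice 2 and 3. Without P30 mouse 1, 244 genes lay below both remaining controls and 69 above. The counts were 93 and 16 without P30 mouse 2, and 468 and 25 without P30 mouse 3. A rule over fewer mice is looser, so a rise in these counts is built in and nothing is read from it. On the cKO side, P32 mouse 5 was the highest in 21 members, P38 mouse 11 in 13 and P32 mouse 4 in 11, while each P34 mouse was the highest in 3. Leaving out P32 mouse 4 or P32 mouse 5 gave 125 and 122 genes below. With the female mice alone, 3 at P30 and 4 cKO, 275 genes lay below and 238 above, again under a looser rule.

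**Figure D2:**
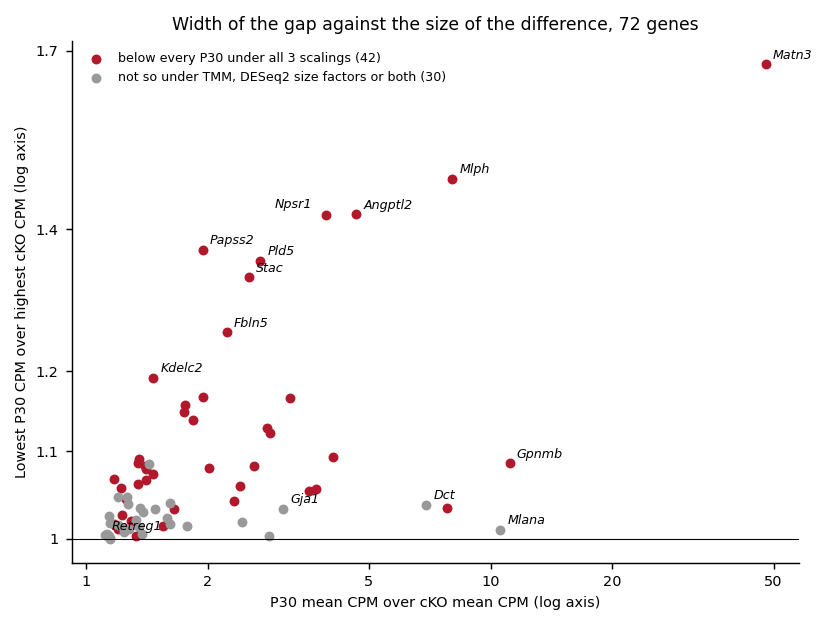
Each point is 1 of the 72 genes, with the P30 mean over the cKO mean on the horizontal log axis and the lowest P30 CPM over the highest cKO CPM on the vertical log axis. In 39 genes the gap is under 5%, and Matn3, Mlph, Angptl2 and Npsr1 have the widest gaps. Red points (42) kept the separation under all 3 scalings and gray points (30) did not.

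Below, the 72 genes are taken by role, in groups drawn up after the members were known. Genes of the pigment cell had the highest median ratio of means of these groups (7.93), although the highest single ratio was that of Matn3, a matrix gene. Of 16 eligible genes in a list of pigment and melanosome genes, 6 were members (37.5%, against 0.540% of all eligible genes), and the list was drawn up with results of these data known. They were Tyrp1 and Dct, enzymes of eumelanin synthesis, Mlana and Gpnmb, membrane proteins of melanosomes, and Mlph and Rab27a, which link melanosomes to myosin. P30 mouse 1 was the lowest control for all 6. Gene positions are on GRCm38, from GENCODE M21.

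Dct (ENSMUSG00000022129, chr14:118012790-118052244, minus strand) had 65.1, 409 and 296 CPM in P30 mice 1, 2 and 3 and 14.6 to 62.7 CPM (median 29.8) in the cKO mice. P30 mouse 1 was thus just above the cKO mice while the other controls were several-fold higher, and the ratio of means was 6.94. Tyrp1 (ENSMUSG00000005994, chr4:80834123-80851719, plus strand) had 20.8, 119 and 102 CPM at P30 and 4.42 to 20.1 CPM (median 7.41) in the cKO mice, a ratio of 7.82. Gpnmb was at 20.1, 192 and 157 CPM at P30 and at 5.7 to 18.5 CPM (median 8.75) in the cKO mice, a ratio of 11.1. The same unevenness among the controls is plain in all of these genes. Mlana, with 3.79, 28.4 and 18.5 CPM at P30 and 0.591 to 3.75 CPM (median 1.08) in the cKO mice, came within 1.0% of losing its place, since P30 mouse 1 and P32 mouse 4 were nearly equal. Mlph was the exception in the width of its gap, with 3.43, 11.5 and 14.4 CPM at P30 and 0.368 to 2.31 CPM (median 0.768) in the cKO mice. Rab27a, named to complete the list, had 13.9, 19.5 and 16.4 CPM at P30 and 10.4 to 12.8 CPM (median 11.2) in the cKO mice, a ratio of only 1.44. Under TMM, DESeq2's size factors or both, 3 of the 6 pigment genes no longer lay below every control.

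The 10 other eligible genes of the pigment list all had a lower mean in the cKO mice, but their P30 and cKO values overlapped. Their summed level was 84.1, 392 and 311 CPM in P30 mice 1, 2 and 3. The P32 mice had 78.1, 90.3 and 33.8 CPM, the P34 mice 36.5, 37.9 and 36.4 CPM and the P38 mice 99.8, 89.6 and 32 CPM. P30 mouse 1 was therefore within the range of the cKO mice and P30 mice 2 and 3 were above it. None of the 9 eligible genes of the RPE list was a member, which at 0.540% of all eligible genes tells little, and their summed level was 158, 118 and 278 CPM at P30 and 112 to 245 CPM in the cKO mice. Rpe65, the isomerase of the visual cycle, had 13.9, 5.86 and 20.5 CPM at P30 and 10.5 to 22.7 CPM (median 16) in the cKO mice. P30 mouse 2, which had the most Dct, thus had the least Rpe65. Where the pigment transcripts came from was not tested.

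The promoters of pigment genes are printed here because OTX2 and MITF are known regulators of these genes. Of the 72 members, 53 matched the RefSeq promoter table by symbol, with 66 start sites. In the 250 bases before each start, on both strands, 3 short sequences were searched: TAATCC, the core that OTX2 and CRX proteins prefer, and the E-boxes CATGTG and CACGTG, which MITF can bind. TAATCC stood in 4 of 66 windows (6.06%, against 5.17% of the windows of eligible genes), CATGTG in 5 (7.58%, against 7.23%) and CACGTG, which reads the same on both strands, in 9 (13.6%, against 7.95%). The windows of the 4 matched pigment genes that held a match follow, 5′ to 3′ on the strand of the gene, from RefSeq on GRCm38.p6, with the matches (or their reverse complement) in capitals.
Dct, chr14:118052247-118052496, minus strand: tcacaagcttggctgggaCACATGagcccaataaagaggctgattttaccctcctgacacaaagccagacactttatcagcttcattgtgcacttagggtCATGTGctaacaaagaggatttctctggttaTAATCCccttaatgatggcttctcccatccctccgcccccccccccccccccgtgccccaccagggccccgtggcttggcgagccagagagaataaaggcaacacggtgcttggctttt
Tyrp1, chr4:80833963-80834212, plus strand: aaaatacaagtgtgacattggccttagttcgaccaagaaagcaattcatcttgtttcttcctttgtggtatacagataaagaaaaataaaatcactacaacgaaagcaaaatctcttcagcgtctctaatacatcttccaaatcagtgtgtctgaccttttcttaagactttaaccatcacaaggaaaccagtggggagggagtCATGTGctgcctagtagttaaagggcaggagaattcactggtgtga
Mlph, chr1:90914850-90915099, plus strand: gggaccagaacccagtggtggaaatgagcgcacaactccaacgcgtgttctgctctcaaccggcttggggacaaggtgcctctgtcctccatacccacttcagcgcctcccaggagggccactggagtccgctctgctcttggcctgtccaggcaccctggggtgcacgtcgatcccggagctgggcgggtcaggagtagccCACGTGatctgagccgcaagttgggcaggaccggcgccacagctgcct
Rab27a, chr9:73063898-73064147, plus strand: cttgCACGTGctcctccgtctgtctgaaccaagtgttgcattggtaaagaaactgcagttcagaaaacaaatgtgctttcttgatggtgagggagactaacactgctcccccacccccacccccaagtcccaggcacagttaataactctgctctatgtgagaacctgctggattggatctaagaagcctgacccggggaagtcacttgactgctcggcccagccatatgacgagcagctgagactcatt
In Dct the matches began at −232, −150 and −119 from the start site, in Tyrp1 at −46, in Mlph at −48 and in Rab27a at −246. A match is a description of these letters and not a binding site.

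Genes of the extracellular matrix (ECM) and of its making formed a second group, of 8 members with ratios from 1.47 to 47.8. The separation of all 8 held under all 3 scalings. A list of ECM genes defined by symbol held 6 of them among 129 eligible genes (4.65%, against 0.540% of all eligible genes). The list also takes in the enzyme Papss2, which is not a matrix protein, and was drawn up with results of these data known. Matn3 (ENSMUSG00000020583, chr12:8947929-8972028, plus strand), a matrilin that joins matrix fibrils, had the widest gap of all members, with 0.366, 8.1 and 3.63 CPM at P30 and 0 to 0.218 CPM (median 0.0524) in the cKO mice. Its counts were low, with 22 in P30 mouse 1 and at most 10 in a cKO mouse, and P30 mouse 1 was far nearer to the cKO mice than to P30 mouse 2. The counting interval was 0.229 to 0.554 CPM for P30 mouse 1 and 0.105 to 0.402 CPM for the highest cKO mouse.

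Papss2 (ENSMUSG00000024899, chr19:32595790-32667187, plus strand), which makes the sulfate donor used on matrix glycans, had 12, 20.5 and 13.2 CPM at P30 and 6.23 to 8.73 CPM (median 8.28) in the cKO mice. The cKO mice kept within a narrow range, and the interval of its lowest P30 value (11.1 to 12.9 CPM) lay clear of that of its highest cKO value (7.83 to 9.71 CPM). Fbln5, a fibulin of elastic fibers, had 5.04, 7.13 and 8.03 CPM at P30 and 1.28 to 4.02 CPM (median 3.38) in the cKO mice. Nid2, a basement membrane nidogen, had 5.34, 8.82 and 9.39 CPM and 0.835 to 4.73 CPM (median 2.31), respectively. Thbs2, a matricellular thrombospondin, had 2.08, 3.3 and 2.98 CPM at P30 and 0.471 to 1.85 CPM (median 0.801) in the cKO mice. In these genes P30 mouse 1 was again the lowest control, with values 1.12 to 1.25 times those of the highest cKO mouse. The remaining members of the group had ratios under 2. They were Dse, an epimerase of dermatan sulfate (1.84), Kdelc2, a glucosyltransferase of the endoplasmic reticulum (1.47), and Mmp28, a matrix metalloproteinase (1.55). Kdelc2 was even within each group, with 3.34, 3.07 and 3.75 CPM at P30 and 1.94 to 2.58 CPM (median 2.36) in the cKO mice. The 123 other eligible ECM genes overlapped as a sum, at 5695 to 6844 CPM at P30 and 4829 to 7480 CPM in the cKO mice.

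Secreted factors, proteases and their regulators gave 9 members. Angptl2 (ENSMUSG00000004105, chr2:33216069-33247717, plus strand), an angiopoietin-like glycoprotein, had 6.3, 16.1 and 17.2 CPM at P30 and 1.08 to 4.43 CPM (median 3.24) in the cKO mice, a ratio of 4.65. P30 mouse 1 lay between the cKO mice and P30 mice 2 and 3, clear of both. Of 52 eligible genes of TGF-β and BMP signaling, Bmp2 and Tgfb2 were members (3.85%, against 0.540% of all eligible genes). Both encode ligands. Bmp2 had 5.1, 6.01 and 7.01 CPM at P30 and 0.976 to 4.82 CPM (median 1.98) in the cKO mice, whereas Tgfb2 had 103, 108 and 103 CPM and 73.8 to 97.2 CPM (median 82). The Tgfb2 controls were tight and the difference was small (1.22-fold). Pdgfc, a growth factor ligand, had a ratio of 1.35. Thbd, the thrombin receptor thrombomodulin, had 2.63, 6.05 and 8.09 CPM at P30 and 1.25 to 2.25 CPM (median 1.6) in the cKO mice. The proteases were Tmprss11e (ratio 2.43), Ctsc (1.36) and Adam17 (1.2).

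**Figure D3:**
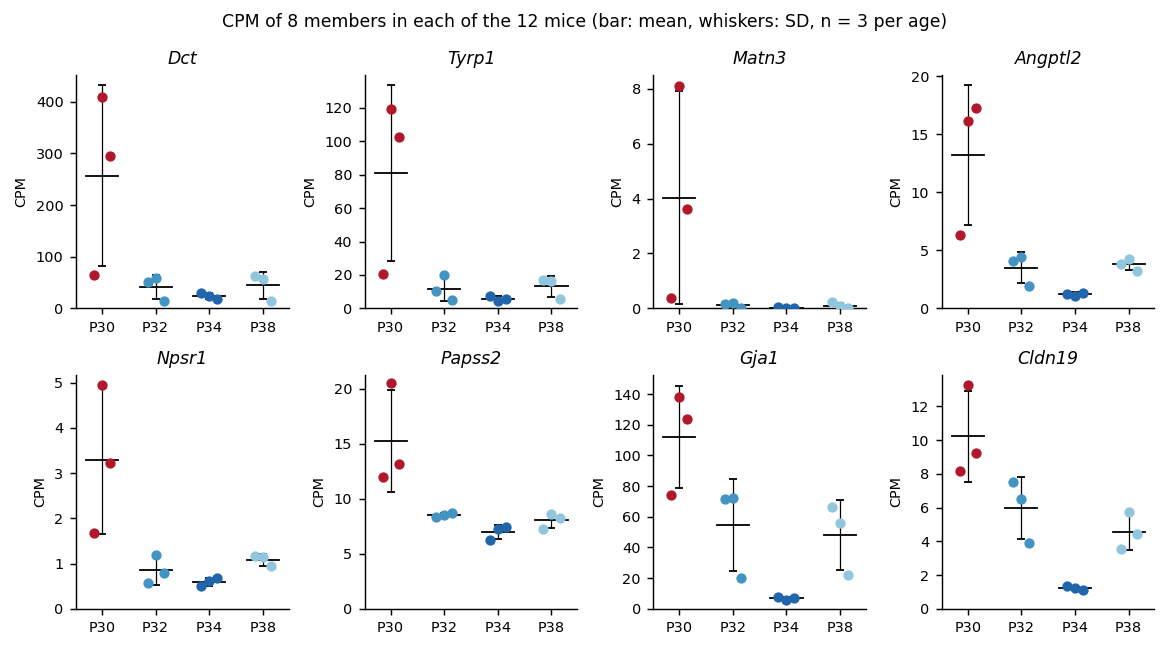
CPM of 8 members in each mouse, by age, on linear axes that start at 0, with the mean (bar) and SD (whiskers, n = 3). In Dct, Tyrp1, Matn3 and Angptl2 the lowest red point, P30 mouse 1, lies near the cKO mice, in Papss2 the cKO mice are close together, and in Gja1 and Cldn19 the 3 P34 mice are below all others.

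Receptors and proteins of adhesion and junctions gave 10 members. Npsr1 (ENSMUSG00000043659, chr9:24097996-24316398, plus strand), the receptor of neuropeptide S, had 1.68, 4.95 and 3.23 CPM at P30 and 0.498 to 1.18 CPM (median 0.796) in the cKO mice, a ratio of 3.91 on a low level. Gja1, the gap junction protein connexin 43, had 74.5, 138 and 124 CPM at P30 and 5.77 to 72.1 CPM (median 22.3) in the cKO mice. Its highest cKO mouse came close to P30 mouse 1, and the cKO mice differed from each other by more than the controls did. Cldn19, a claudin of tight junctions, had 8.16, 13.3 and 9.25 CPM at P30 and 1.11 to 7.54 CPM (median 3.93) in the cKO mice. Lgr4, a receptor for R-spondins and the sole member among 42 eligible Wnt genes (2.38%, against 0.540% of all), differed little, with 75.6, 77.1 and 70.2 CPM at P30 and 57.7 to 68.9 CPM (median 64.7) in the cKO mice. Mertk and Axl, related receptor kinases of which Mertk serves the RPE in taking up outer segments, were both members, with ratios of 1.27 and 1.27. The others were the TNF receptor family members Tnfrsf19 (1.74) and Tnfrsf21 (1.4), the laminin receptor subunit Itga7 (1.4) and the membrane protein Emp3 (2.83).

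Transporters and metabolic enzymes gave 11 members. Of 271 eligible solute carriers 4 were members (1.48%, against 0.540% of all eligible genes). Slc38a8, an amino acid transporter, had 1.61, 5.23 and 4.14 CPM at P30 and 0.337 to 1.48 CPM (median 0.843) in the cKO mice, so P30 mouse 1 was again close to them. Slc20a2, a phosphate transporter, had 49, 56.4 and 51.6 CPM at P30 and 33.1 to 44.9 CPM (median 39) in the cKO mice, with little spread among the controls. The bicarbonate transporter Slc4a5 had 59.8, 92.9 and 72.8 CPM at P30 and 39.7 to 58.9 CPM (median 44.2) in the cKO mice. The copper transporter Slc31a1 had 55.1, 52.3 and 52.7 CPM and 41.4 to 52.1 CPM (median 47.4), with P38 mouse 10 just below P30 mouse 2. Ucp2, an uncoupling protein of mitochondria and the member among 65 eligible redox genes (1.54%, against 0.540% of all), had 19.5, 43.4 and 33.5 CPM at P30 and 10.5 to 18.7 CPM (median 13.5) in the cKO mice. The ratios of the remaining enzymes were 1.78 for Gfpt2, 1.61 for Maob, 1.34 for Galm, 1.29 for Adhfe1, 1.28 for L3hypdh and 1.25 for Ptges.

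Contractile and cytoskeletal proteins gave 9 members. Myl9, the regulatory light chain of smooth muscle myosin and the member among 8 eligible smooth muscle markers (12.5%, against 0.540% of all eligible genes), had 10.6, 30.3 and 25.8 CPM at P30 and 4.07 to 10.04 CPM (median 5.41) in the cKO mice. P30 mouse 1 and P32 mouse 4 were close, whereas P30 mice 2 and 3 were several-fold above most cKO mice. Stac, an adaptor of calcium channels, had 3.82, 6.33 and 4.2 CPM at P30 and 1.04 to 2.88 CPM (median 1.72) in the cKO mice, with a wider gap. Plekhg3, an exchange factor for small GTPases, had 93, 97.7 and 86.4 CPM at P30 and 45.8 to 86.1 CPM (median 73) in the cKO mice, so that P30 mouse 3 and P32 mouse 5 almost touched. The others were Palmd (1.59), Nexn (1.48), Mypn (1.41), Pdlim3 (1.33), Arhgap18 (1.2) and Arhgap42 (1.14), given as ratios of means.

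Of 7 transcription factors and coactivators, Zic1 and Mecom had the largest differences. Zic1, a zinc finger factor on the list of ciliary body and iris markers, had 17.4, 22.7 and 17.5 CPM at P30 and 5.47 to 15 CPM (median 10.3) in the cKO mice. The ratio of means was 2.02 for Mecom, 1.65 for Tcf7, 1.36 for Eya2, 1.2 for Yap1, 1.15 for Nfkb1 and 1.14 for Zfp51, the last being the sole member on a list of 403 eligible genes with symbols such as Zfp or Zbtb (0.248%, against 0.540% of all eligible genes). Counts of 1 or 2 members in a list are too small to read against that share. The 12 members left had ratios from 1.11 to 2.70. Pld5, a phospholipase D family protein, had 6.98, 12.3 and 11.6 CPM at P30 and 2.56 to 5.16 CPM (median 3.56) in the cKO mice. Ociad2 had 19.7, 26.2 and 26.1 CPM at P30 and 8.75 to 16.9 CPM (median 11.3) in the cKO mice, and both kept their intervals apart. Bbs12 encodes a chaperonin-like factor that helps assemble the BBSome cilium complex. It had 42.5, 42.2 and 40.4 CPM at P30 and 27.3 to 39.97 CPM (median 34) in the cKO mice, a narrow separation. The ratios of the others were 1.47 for Sncaip, 1.38 for Pdzrn3, 1.38 for Ccdc187, 1.24 for Gng12, 1.23 for Cnksr3, 1.17 for Mpp6, 1.17 for Raver2, 1.14 for Map3k5 and 1.11 for Retreg1.

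At the edge of the rule the values nearly coincided. Just inside, the lowest P30 value exceeded the highest cKO value by 0.265% in Emp3, 0.116% in Arhgap42 and 0.00881% in Nfkb1. In Emp3 those values were 2.48 and 2.47 CPM, with 149 and 79 counts. Just outside, the ratio of the lowest P30 to the highest cKO value was 0.998 in Frmd6 and in Pip5k1b. Frmd6 had 11.4, 10.5 and 12.1 CPM at P30 and 7.28 to 10.5 CPM (median 9.24) in the cKO mice, so it missed by 0.159% of the highest cKO value.

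Marker lists of neural retina held no member. This was so for the 16 eligible PR markers, the 8 of bipolar cells, the 9 of amacrine cells, the 9 of retinal ganglion cells and the 9 of Müller glia, and also for the 11 of endothelium and the 14 of the lens. With 0.540% of all eligible genes as members, nothing is read from a count of 0 in lists of this length. In all, 23 members stood in at least 1 list and 49 in none. The summed smooth muscle markers other than Myl9 were 188, 405 and 365 CPM at P30 and 143 to 237 CPM in the cKO mice, so P30 mice 2 and 3 were high in these as in the pigment genes, and P30 mouse 1 was not. The summed lens markers were 15519.6, 760.4 and 48876 CPM at P30, in another order of the mice. The part of these cell types in the differences was not tested here.

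**Figure D4:**
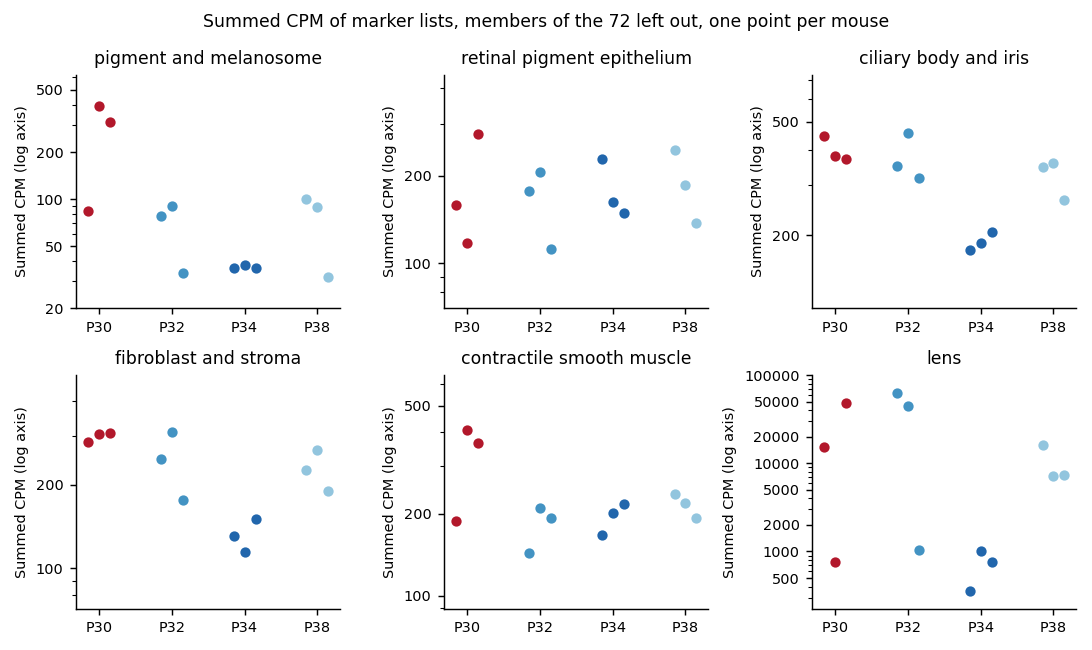
Summed CPM (log axes) of 6 marker lists, without any of the 72 genes, with 1 point per mouse by age. Pigment and smooth muscle sums are high in P30 mice 2 and 3 and not in P30 mouse 1, RPE sums overlap at all ages, and ciliary and stromal sums are lowest in the 3 P34 mice.

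Each cKO age was then compared with the others in 1 edgeR quasi-likelihood model over the 12 mice, without a term for sex. Xist was low in P32 mouse 4, in P34 mice 7 and 8 and in P38 mice 10 and 11. The mix of sexes at P32 thus differed from that at P34 and P38. A gene passed when its p, adjusted over all genes by Benjamini and Hochberg, was 0.05 or less and its log2 fold change was 0.5 or more in size. All 72 members were among the 18628 genes tested. Between P34 and P32, 2 members were lower at P34, Cldn19 and Tmprss11e, against 45 of all genes (0.242%), and no member was higher by edgeR's test or by DESeq2. With no limit on the size of the change, 2 members, Slc20a2 and Palmd, were higher and 16 lower at an unadjusted p under 0.05. Of all genes 2523 were then higher and 2482 lower. With the limit 0 members were higher and 15 lower, against 1023 and 1664 of all genes. Between P38 and P34, the same genes, Cldn19 and Tmprss11e, were higher at P38, against 37 of all genes (0.199%). Between P38 and P32 no member and no gene passed (0%), while 1 member, Tmprss11e, had an unadjusted p under 0.05 with a change of that size, higher at P38. In all genes 1059 were higher and 1161 lower at an unadjusted p under 0.05 with a change of that size in that comparison. Without the limit on size 2 members, Tmprss11e and Slc20a2, were higher at P38 at an unadjusted p under 0.05. Of all genes 2300 were then higher and 2033 lower. DESeq2 called no member between P38 and P32, and 513 genes higher and 418 lower. The adjusted p of Slc20a2 by DESeq2's Wald test was 0.0238, but its log2 fold change of 0.36 was under the limit.

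Cldn19 had 7.54, 6.49 and 3.93 CPM in P32 mice 4, 5 and 6. It fell to 1.34, 1.25 and 1.11 CPM in P34 mice 7, 8 and 9, and stood at 3.54, 5.74 and 4.44 CPM in P38 mice 10, 11 and 12. The log2 fold change of P34 over P32 was -2.19 (SE 0.28, adjusted p = 0.00603) and that of P38 over P34 was 1.91 (SE 0.28, adjusted p = 0.0150), with edgeR and Benjamini-Hochberg adjustment. The 3 P34 mice were below all others and close to each other. Tmprss11e (ENSMUSG00000054537, chr5:86705186-86745815, minus strand), a membrane-bound serine protease of epithelia, had 1.16, 1.91 and 0.719 CPM in the P32 mice. The P34 mice had 0.236, 0.27 and 0.202 CPM and the P38 mice 1.94, 2.41 and 1.67 CPM. In counts, Tmprss11e had 9, 11 and 6 in P34 mice 7, 8 and 9, near the floor. Its log2 fold changes were -2.31 (SE 0.37, edgeR adjusted p = 0.0257) and 3.10 (SE 0.37, adjusted p = 0.00500). Both comparisons share the P34 mice, so a low P34 group moves both. Without P34 mouse 8 neither gene passed in either comparison. Their changes from P32 to P34 were then −2.18 (adjusted p = 0.0579) for Cldn19 and −2.40 (adjusted p = 0.101) for Tmprss11e. Without P34 mouse 9 neither passed from P32 to P34, with changes of −2.12 (adjusted p = 0.0542) and −2.22 (adjusted p = 0.145). Tmprss11e also missed the threshold there without P34 mouse 7 (−2.33, adjusted p = 0.167) and without P32 mouse 5 (−1.87, adjusted p = 0.0738). From P34 to P38, Cldn19 missed it without P34 mouse 7 (2.00, adjusted p = 0.112), P34 mouse 9 (1.84, adjusted p = 0.117) or P38 mouse 11 (1.74, adjusted p = 0.0921).

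The change of Gja1 between P34 and P32 missed the threshold by little. The P32 mice had 71.5, 72.1 and 19.98 CPM, the P34 mice 7.94, 5.77 and 7.0 CPM and the P38 mice 66.2, 56 and 22.3 CPM, and the log2 fold change of P34 over P32 was -2.89 (SE 0.52, edgeR adjusted p = 0.0501). P32 mouse 6 and P38 mouse 12 were far below the other mice of their ages. Without P32 mouse 6, 11 members were lower at P34 than at P32 in place of 2, while the calls over all 19062 genes tested went from 45 lower and 0 higher to 1310 lower and 1416 higher. Emp3 (log2 fold change -2.26, adjusted p = 0.0742) did not pass edgeR's test either. It is given as a further gene with a low P34 group, chosen after its values were seen. DESeq2's Wald test called 10 members in the first comparison, all lower at P34, and 8 in the second, all higher at P38. Over all 33959 genes it called 834 lower and 584 higher in the first and 142 higher and 7 lower in the second.

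**Figure D5:**
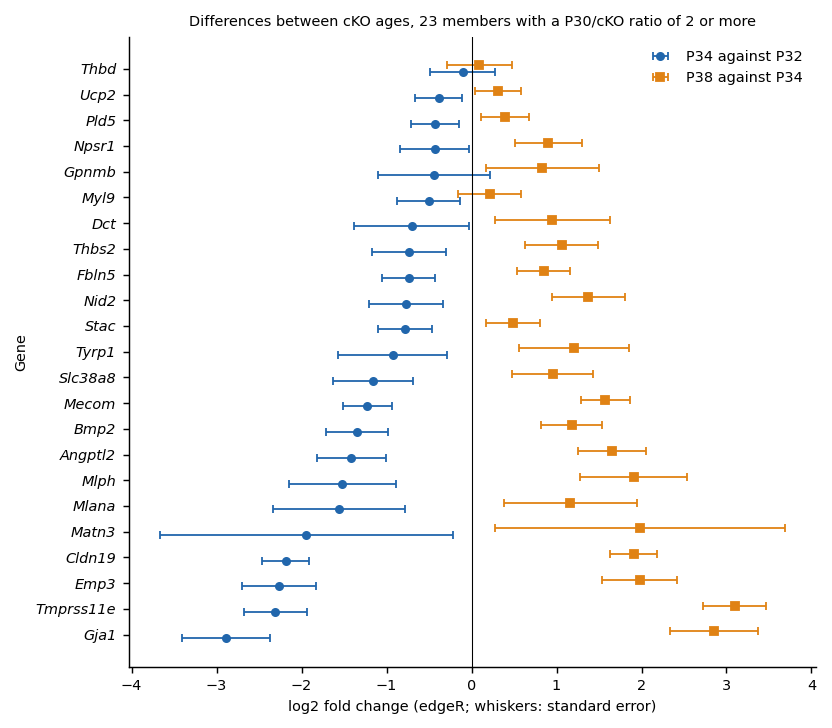
Log2 fold changes (edgeR, whiskers: standard error) of P34 against P32 (circles) and of P38 against P34 (squares) in 23 of the 24 members whose P30 mean was at least 2 times the cKO mean. All 23 lie left of 0 in the first comparison and right of 0 in the second, and both use the same P34 mice. The cKO mean that chose these members holds the P34 mice too, so nothing is read from the common direction.

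Over all 72 members the median log2 fold change was −0.17 for P34 against P32 (all genes −0.02), 0.22 for P38 against P34 (all genes −0.003) and 0.07 for P38 against P32 (all genes −0.02). Of the cKO ages, P34 had the lowest mean CPM in 53 members (73.6%), against 27.3% of the eligible genes. All 3 P34 mice were below the 6 other cKO mice in 15 members (20.8%), against 2.56% of the eligible genes. They included Angptl2, Gfpt2, Adhfe1, Mlph, Bmp2, Mecom, Ctsc, Zic1, Slc38a8, Galm, Emp3, Gja1, Tmprss11e and Cldn19. Markers of the ciliary body and iris were low at the same age. Without Zic1 their sum was 177, 187 and 205 CPM in the P34 mice, against 352, 458 and 319 CPM in the P32 mice and 347, 359 and 266 CPM in the P38 mice, and the sum of stromal markers was 131, 114 and 150.0 CPM at P34 against 177 to 311 CPM in the other cKO mice. The lens sum was 358 to 1001 CPM at P34 and 1038 to 63108 CPM in the other cKO mice. The part of these tissues in the low P34 values was not tested.

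Over the 9 cKO mice, some members rose and fell with these sums. Pearson's r of their log2 level with the log2 of the summed pigment list was at least 0.8 in 9 of the 66 members outside that list (13.6%, against 2.60% of the eligible genes outside it). The sums hold no member, and each list's own genes are left out of the counts. With the ciliary list it was so in 15 of 71 members (21.1% against 3.02%) and with the lens list in 16 of 72 (22.2% against 3.40%). After the mean of each age was taken out, it was at least 0.8 in 5 members for the pigment list (7.58% against 2.91%), 8 for the ciliary list (11.3% against 1.32%) and 2 for the lens list (2.78% against 2.33%). These are descriptions over 9 libraries, in which a gene and a sum share each library's total.

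When the 9 cKO mice were taken as 1 group against P30, the median log2 fold change was −0.52 over the members and 0.01 over all genes tested, and 6 members stood among the 10 genes (0.0537%) lower by edgeR's test. They were Matn3, Gpnmb, Papss2, Myl9, Pld5 and Thbd. The members were selected on this contrast, so nothing is read from the count. It was 14 of 48 genes without P30 mouse 1. Neither a member nor any other gene was called without P30 mouse 2, without P30 mouse 3 or in the female mice alone, where 30 of 196, 33 of 227 and 36 of 382 genes lower at an unadjusted p under 0.05 were members.

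The members lay on 18 chromosomes, with 9 on chromosome 2 and 1 on X, Maob. Yap1 and Arhgap42 on chromosome 9 were the nearest pair, 989733 bp apart. The median level of the members was 6.54 CPM, against 29.7 CPM over the eligible genes, at a median exonic length of 4859 and 4655 bases. Coding genes overlapped 14 members on the opposite strand and 1 (Pld5) on the same strand. Whether the counting used strand is not given in the sources used here, so reads of such a pair may be shared.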

How the data were processed

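RNA of whole retinas of 12 mice, 3 at each of P30, P32, P34 and P38, was sequenced by the authors as 50 bp single reads from stranded mRNA libraries. They mapped the reads to mm10 with STAR 2.5.3a and deposited 1 whole-number count per gene and mouse, made with HTSeq 0.6.1p1 in union mode on Ensembl release 93. Reads with more than 1 position (23.7 to 32.2%) or on no gene (6.53 to 13.7%) were left out of totals and tests. Mice were grouped by their labels.

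CPM were computed from these counts, and gene types and positions came from GENCODE M21 (GRCm38), which named 54079 genes. Ages were compared with edgeR 4.0.16 in R 4.3.3 (TMM, filter on low counts, quasi-likelihood test). The procedure was tested on simulated data. P-values measure the spread between mice, and intervals cover counting error only. The members, lists and tests were chosen with earlier results of these data known. Genes named with values were the 12 with the widest gap, the 10 with the highest CPM, up to 4 per list, those that passed a test between ages, and those at the edge of the rule, and the other members are named to account for all. Alternatives were TMM and DESeq2 1.42.0 scaling, other CPM minimums, no filter, a robust fit, cKO mice only, DESeq2's test and leaving out each mouse. Female mice only and all gene types were added after seeing the data. Reads over the deleted exon were not analysed here, and 1 member and 2 other genes are not reported here.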

Additional observations from a re-analysis of the deposited data

Results flagged for a closer look

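Differences between cKO ages that passed edgeR's test were found in 2 of the 72 genes. The log2 fold change of P34 against P32 was −2.31 for Tmprss11e and −2.19 for Cldn19, and that of P38 against P34 was 3.10 and 1.91. Tmprss11e had 9, 11 and 6 counts in P34 mice 7, 8 and 9. Both comparisons use the P34 mice, in which the markers of the ciliary body and iris and of stroma were low as well. Whether those tissues had a part in it was not tested. No cKO mouse stood apart from the other 8 in any of the 72 genes by Dixon's test at the 95% level.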

How the results depend on the processing

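The number of genes below every P30 mouse was 45 with a minimum mean of 5 CPM, 84 with 0.5 CPM, 275 in female mice only and 75 to 468 when each mouse was left out in turn. Members past the threshold for P34 against P32 numbered 8 without a filter on low counts (of 425 lower genes), 1 with the 9 cKO mice only (of 30), 10 by DESeq2's test (of 834) and 0 to 11 with a mouse left out. For P38 against P34 they numbered 7 without the filter (of 112 higher genes), 8 by DESeq2's test (of 142) and 0 to 3 with a mouse left out. The median log2 fold change of the cKO mice against P30 was −0.62 to −0.50 with a P30 mouse left out. No result reversed. Counting each member once for each of TMM, DESeq2's size factors and each P30 mouse left out, the ratio to P30 kept within the spread between replicates 346 times and left it 14 times. That spread was wide where the P30 mice were uneven. The ratio of Matn3, 47.8 in all mice, was 69.6 without P30 mouse 1 and 23.7 without P30 mouse 2, and was counted as kept. The 346 is therefore not a measure of how steady the ratios were. Over all settings, the log2 fold changes between ages of some of the named genes kept their side of the threshold 197 times, gained it 22 times and lost it 12 times. Only Cldn19 and Tmprss11e had passed in the main fit, and all 12 losses were theirs. Most of the 197 were comparisons that had not passed to begin with, so this number does not show that the calls were stable. The cause was not tested. No paired analysis was possible because the mice are numbered 1 to 12 across the ages and no number is shared. Counts of 10 or fewer in a library, as in Matn3 and in Tmprss11e in P34 mice 7 and 9, limit what depth can resolve.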

Other observations

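With all gene types admitted, 77 genes lay below every P30 mouse and 7 above, and the 72 protein-coding genes were among the 77.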
